A study of Mus musculus with 6 samples.

Results

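The 38 genes described here are the measured transcripts of the autophagy machinery and of its main regulators, out of 25206 probe sets on each array. They were taken by name: the numbered Atg genes, the Gabarap and Map1lc3 genes, Ulk1 to Ulk4, Wipi1 and Wipi2, and Sqstm1, Becn1, Uvrag, Tfeb, Tfe3, Mitf, Nbr1, Calcoco1 and Rb1cc1. The names were chosen with earlier results of these data known. Optn, also on the list of names, was not analysed here. The arrays measured macrophages derived from mouse bone marrow, that is, matured in culture from marrow precursors. The labels give 3 control samples with no treatment and 3 samples treated with JG-98, an allosteric inhibitor of Hsp70 chaperones known to disturb their binding to Bag3. The dose is given as 0.3 micromole for 16 hours, with no volume, and no vehicle is named for the controls. The labels give no genotype, strain, sex or age. Values are log2 expression levels, with 1 probe set per gene.

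Autophagy encloses cytoplasm in a double membrane, the autophagosome, and delivers it to lysosomes. The ULK kinase complex starts the process when nutrient signalling by mTORC1 falls, and the Beclin 1 complex then makes a phosphoinositide that recruits WIPI proteins. ATG2 and ATG9 supply lipid to the growing membrane, while a conjugation cascade couples Atg8 proteins (LC3 and GABARAP) to it. Cargo receptors such as p62, the product of Sqstm1, tie ubiquitinated protein to Atg8 proteins. TFEB, TFE3 and MITF are transcription factors that switch on lysosomal and autophagy genes, and macrophages use the whole pathway to clear microbes and protein aggregates. Hsp70 feeds a share of its clients into this route through Bag3.

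Because TFEB, TFE3 and MITF bind the E-box, the promoters of the members were read for that motif, in RefSeq windows of 300 bases (250 before and 50 after the start, assembly GRCm38.p6). At least 1 window was given for 33 of the 38 members. The E-box, CACGTG, stood in 4 of the 41 windows of the members (9.76%), those of Atg3, Atg7, Atg5 and Atg14, a share near the 7.15% of all 32851 windows. The extended form preferred by TFEB, TCACGTGA, which contains the E-box, stood in 1 of the 41, that of Atg3, against 0.974% of all windows. The ATF4 site, TGATGNAAN, was found in 0 member windows on either strand, against 3.95% of all. The stretches around the matches are shown first, with the E-box in capitals, 5′ to 3′ on the gene's strand. The Sqstm1 and Map1lc3b stretches are the 100 bases before the start. They are shown because a cargo receptor and the Atg8 protein it binds stood on opposite sides of control, and they hold none of the 3 motifs.
Atg3, chr16:45158715-45158783, plus strand: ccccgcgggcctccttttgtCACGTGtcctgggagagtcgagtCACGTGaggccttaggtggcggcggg
Atg7, chr6:114670944-114670989, plus strand: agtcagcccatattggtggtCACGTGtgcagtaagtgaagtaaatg
Atg5, chr10:44268305-44268348, plus strand: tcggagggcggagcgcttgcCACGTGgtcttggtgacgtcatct
Atg14, chr14:47568425-47568455, minus strand: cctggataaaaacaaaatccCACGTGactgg
Sqstm1, chr11:50210821-50210920, minus strand: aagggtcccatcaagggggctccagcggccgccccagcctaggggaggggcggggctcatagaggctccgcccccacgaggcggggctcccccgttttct
Map1lc3b, chr8:121590338-121590437, plus strand: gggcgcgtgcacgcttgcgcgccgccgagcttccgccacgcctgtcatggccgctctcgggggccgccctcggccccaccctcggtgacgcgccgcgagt
The first E-box letter lay 94 and 71 bases before the start in Atg3, 132 in Atg7, 14 in Atg5 and 1 in Atg14. These matches describe the letters of the windows and show no binding.

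Array medians lay between 4.08 and 4.24. JG-98 replicate 3 stood apart, with the lowest array weight (0.334, against 0.915 to 2.36) and the narrowest spread over probe sets (SD 2.39, against 2.43 to 2.47). All 9 measured macrophage markers lay above the median level of all probe sets, against 0 of 10 neutrophil, 0 of 9 dendritic cell and 0 of 8 T and NK cell markers. Of the other lists, 4 of 8 osteoclast, 3 of 8 endothelial, 2 of 9 stromal, 1 of 6 B cell and 1 of 5 erythroid markers lay above it. The summed level of the macrophage markers was 13.74 to 13.76 on the log2 scale in controls and 13.64 to 13.73 with JG-98, so the groups did not overlap. The same sum for 8 endothelial markers was 7.59 to 7.70 and 7.80 to 7.83, and that of 6 B cell markers was 9.33 to 9.35 and 9.18 to 9.31. The part of these shifts in the results for the autophagy genes was not tested. Fewer cells of a type and less RNA per cell cannot be told apart in such samples.

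With JG-98, 28 of the 38 autophagy genes had a mean below that of the controls and 10 a mean above it. Without JG-98 replicate 3 these were 22 and 16. Of all probe sets 12530 were below and 12665 above, and of those above the 75th percentile of level 3332 and 2967. The lowest autophagy genes were Ulk1, the initiating kinase, Atg2a, a lipid transfer protein, and Calcoco1, a receptor for endoplasmic reticulum and Golgi cargo. Sqstm1 was the highest. The differences were small, from -0.37 to 0.22 on the log2 scale. None of the 38 passed the test over all probe sets (limma with Benjamini-Hochberg adjustment, adjusted p under 0.05), where 0.0317% of all probe sets were called higher and 0.00793% lower. At an unadjusted p under 0.05 there was 1 member higher, against 3.84% of all probe sets, and 6 lower, which is 15.8% of the members against 4.48% of all. Those 6 were 3 without control replicate 1, and after centring each array on its median they were 3 and the 1 higher was 0. With an intensity trend in limma's variance prior, 3 members passed the adjusted test, Ulk1 (adjusted p = 0.0089), Sqstm1 (0.021) and Calcoco1 (0.035). That setting called 127 of all 25206 probe sets higher (0.504%) and 127 lower (0.504%). Lower with no overlap between the groups were 12 members, 31.6% of them, against 8.44% of all probe sets. Higher with no overlap were 2 members, against 7.12% of all. Most members were well above the median level, and among the 6302 probe sets above the 75th percentile of level 17.9% were lower with no overlap. In that bright range 11 of 26 members were.

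**Figure D1:**
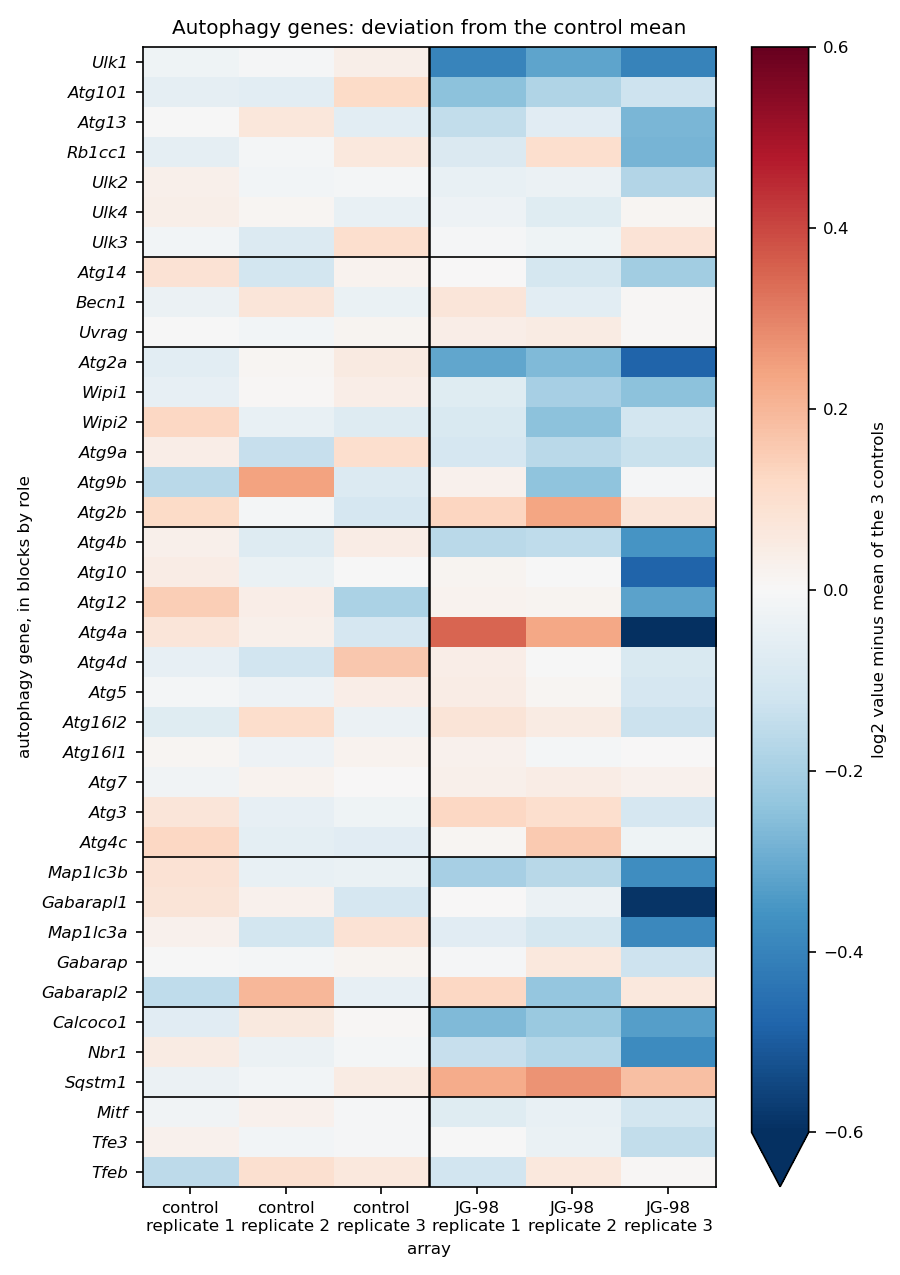
Heat map of the 38 autophagy genes (rows, in blocks by role) on the 6 arrays (columns). Colour gives the log2 value minus the mean of the 3 controls, and the darkest blue also holds values below the scale. Ulk1, Atg2a and Calcoco1 are blue on all 3 JG-98 arrays, Sqstm1 is red on all 3, and JG-98 replicate 3 is the bluest column.

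**Figure D2:**
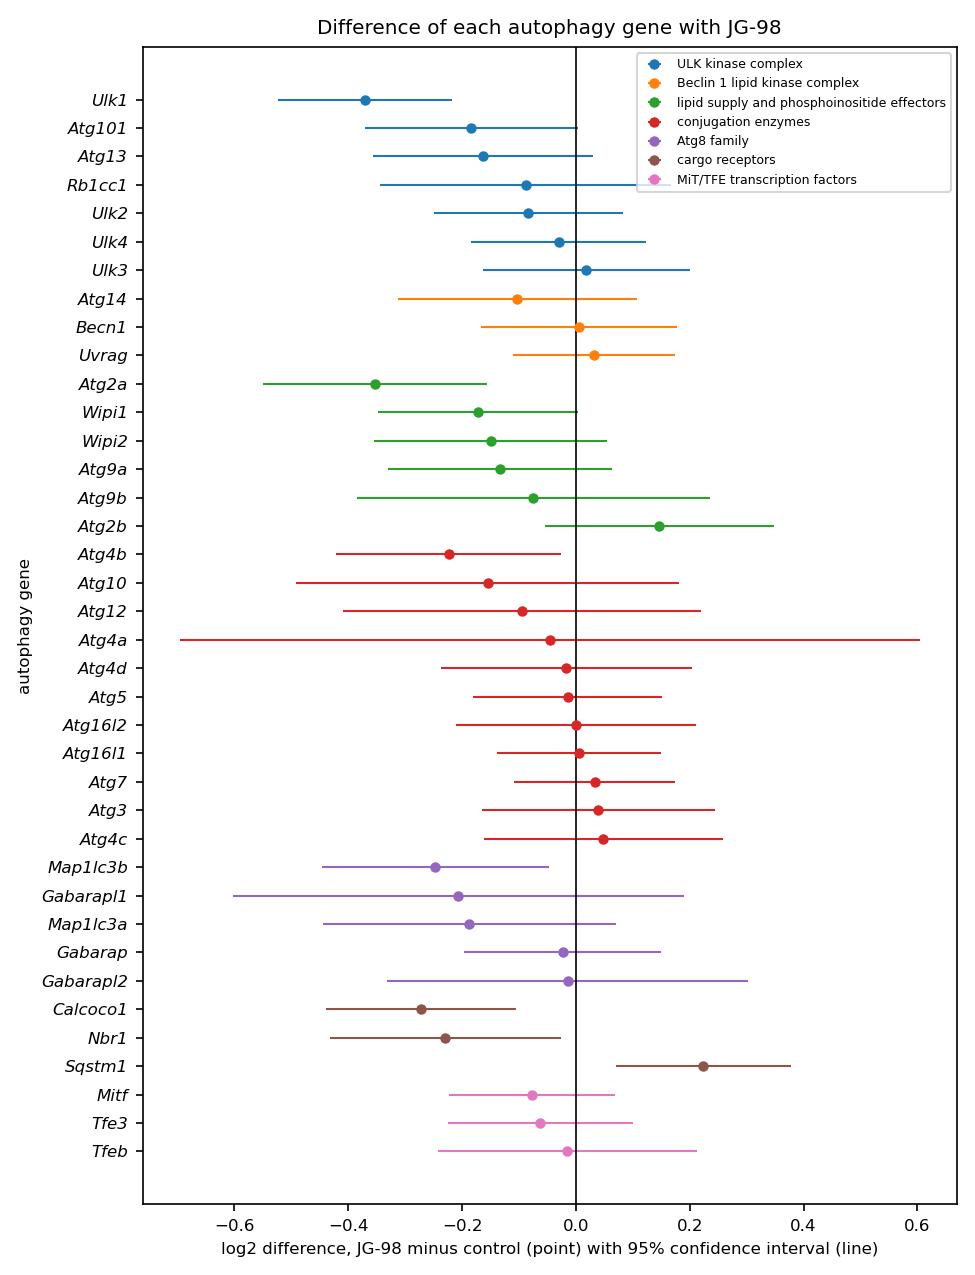
Log2 difference between JG-98 and control for each of the 38 genes (point) with the 95% confidence interval of the limma fit (line), coloured by role, n = 3 arrays per group. Of the intervals, 15 lie wholly between -0.25 and 0.25, among them those of Becn1, Atg5, Atg7 and Tfeb.

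Among the 7 genes of the ULK complex and its relatives, 6 were below control and 4 did not overlap with it. Of all probe sets, 8.44% were lower with no overlap, and 17.9% of those above the 75th percentile of level. Ulk1 was at 8.36, 8.37 and 8.42 in the controls and at 7.99, 8.07 and 7.98 with JG-98. Every JG-98 array lay below every control, and the 3 JG-98 values were close together. Its difference was -0.37 ± 0.064 (SE, n = 3 per group), a level 0.774 of that in controls (limma adjusted p = 0.23). Its nearest relative Ulk2, a kinase that can stand in for Ulk1, was at 8.44, 8.39 and 8.40 in controls and 8.37, 8.37 and 8.23 with JG-98. The Ulk2 groups did not overlap either, but the difference was only -0.08 ± 0.069 and was -0.038 without JG-98 replicate 3. Of the partners in the complex, the scaffold Atg13 differed by -0.16 ± 0.081 (-0.11 without JG-98 replicate 3) and Atg101, which stabilises Atg13, by -0.18 ± 0.078. Both had all JG-98 values below all controls. Rb1cc1, the large scaffold also called FIP200, was at -0.09 ± 0.11, and at 0.0064 without JG-98 replicate 3. The less related kinases Ulk3 and Ulk4 were at 0.02 and -0.03, with groups that overlapped, and Ulk4 lay near the median level of all probe sets.

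The 3 members that belong to the Beclin 1 complex had groups that overlapped. The complex also holds the catalytic subunit Pik3c3, which is not among the 38. Pik3c3, given again below, was lower with no overlap, at -0.21 ± 0.068. Becn1, the scaffold of the complex, was at 8.10, 8.21 and 8.09 in controls and 8.20, 8.07 and 8.14 with JG-98. The JG-98 range lay almost on that of the controls, and the difference of 0.01 had a 95% confidence interval of -0.17 to 0.18. Uvrag, the subunit of the form that acts on later endosomal steps, was at 0.03 (-0.11 to 0.17). Atg14, the subunit that targets the complex to nascent autophagosomes, was at -0.10 (-0.31 to 0.11), and at -0.051 without JG-98 replicate 3.

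Of the 6 genes for lipid supply and phosphoinositide reading, 5 were below control and 3 of them without overlap. Of all probe sets, 8.44% were lower with no overlap, and 17.9% of those above the 75th percentile of level. Atg2a was at 7.39, 7.46 and 7.51 in controls and 7.14, 7.18 and 6.97 with JG-98. All JG-98 values were below all controls, with JG-98 replicate 3 the lowest. The difference was -0.35 ± 0.082, a level 0.783 of control (limma adjusted p = 0.36). Its paralog Atg2b was at 6.08, 5.96 and 5.87 in controls and at 6.10, 6.21 and 6.05 with JG-98, on the other side of control at 0.15 ± 0.084, and its groups overlapped. It was at 0.097 without control replicate 3. The phosphoinositide-binding Wipi1 and Wipi2 were at -0.17 ± 0.073 and -0.15 ± 0.085, each with no overlap, and Wipi2 was at -0.087 without control replicate 1. Atg9a, the lipid scramblase of the vesicles that seed the membrane, was at -0.13 ± 0.082, and at -0.082 without control replicate 3. The tissue-restricted Atg9b lay near the median level of all probe sets, where background is not excluded, and was at -0.07 ± 0.13.

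The 11 conjugation genes centred near 0, with a median difference of -0.0145, 5 members above control and 6 below. Atg5, Atg12 and Atg16l1 form the ligase that attaches Atg8 proteins to lipid, Atg7 is the E1-like and Atg3 the E2-like enzyme, and Atg10 joins Atg12 to Atg5. Atg7 was at 7.99, 8.03 and 8.01 in controls and 8.04, 8.05 and 8.04 with JG-98. The groups did not overlap, yet the difference of 0.03 had an interval of -0.11 to 0.17. Atg5 was at -0.01 (-0.18 to 0.15), Atg16l1 at 0.01 (-0.14 to 0.15) and Atg3 at 0.04 (-0.17 to 0.24). The genes with E-box stretches shown above were thus at 0.04, 0.03, -0.01 and -0.10 for Atg3, Atg7, Atg5 and Atg14.

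The Atg4 proteases, which trim Atg8 proteins and release them from lipid, differed among themselves. Atg4b, the main protease for LC3, was at 7.80, 7.69 and 7.81 in controls and 7.61, 7.62 and 7.41 with JG-98, with no overlap. Its difference was -0.22 ± 0.083 (limma adjusted p = 0.54), and -0.16 without JG-98 replicate 3. Atg4a was at 6.26, 6.22 and 6.09 in controls and 6.54, 6.42 and 5.48 with JG-98. The first 2 JG-98 arrays were above every control and the last below every control, so that its difference was -0.05 ± 0.27 with all arrays and 0.29 without JG-98 replicate 3. Atg4c and Atg4d were at 0.05 and -0.02. Atg10 and Atg12, at -0.16 and -0.09, were likewise at 0.0068 and 0.019 without that array.

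All 5 Atg8 genes had a mean below control, though Gabarap and Gabarapl2 were close to it. Map1lc3b, which encodes the LC3 form most used as an autophagosome marker, was at 10.05, 9.92 and 9.93 in controls and 9.77, 9.80 and 9.60 with JG-98. All JG-98 values were below all controls, by a difference of -0.25 ± 0.083 (limma adjusted p = 0.51), or -0.18 without JG-98 replicate 3. Map1lc3a was at -0.19 ± 0.11 and overlapped, and was at -0.088 without JG-98 replicate 3. Gabarap, the founder of its subfamily, was at 11.18, 11.17 and 11.20 in controls and 11.18, 11.25 and 11.06 with JG-98, a difference of -0.02 (-0.20 to 0.15) that turned to 0.027 without JG-98 replicate 3. Gabarapl1 was at 8.91, 8.86 and 8.73 in controls and 8.83, 8.80 and 8.24 with JG-98. Its difference of -0.21 ± 0.17 was -0.015 without that last array. Gabarapl2 was at -0.01 ± 0.13.

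Of the 3 cargo receptors measured, 1 was higher and 2 were lower, each with no overlap. The shares over all probe sets were 7.12% higher and 8.44% lower with no overlap. Above the 75th percentile of level, where all 3 receptors lay, they were 13.7% and 17.9%. Sqstm1, whose protein p62 gathers ubiquitinated cargo, was at 10.48, 10.50 and 10.57 in controls and 10.74, 10.79 and 10.70 with JG-98. Every JG-98 value exceeded every control, and the spread within each group was narrow (SD 0.044 and 0.043). The difference was 0.22 ± 0.064, or 1.17-fold (limma adjusted p = 0.44). Nbr1, a receptor of like domain structure that acts with p62, was at 8.83, 8.75 and 8.77 in controls and 8.65, 8.61 and 8.41 with JG-98. Its values with JG-98 were all below control, at -0.23 ± 0.085 (limma adjusted p = 0.54), or -0.15 without JG-98 replicate 3. Calcoco1 was at 9.21, 9.34 and 9.28 in controls and 9.01, 9.05 and 8.95 with JG-98. It too had no overlap, at -0.27 ± 0.070 (limma adjusted p = 0.40).

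**Figure D3:**
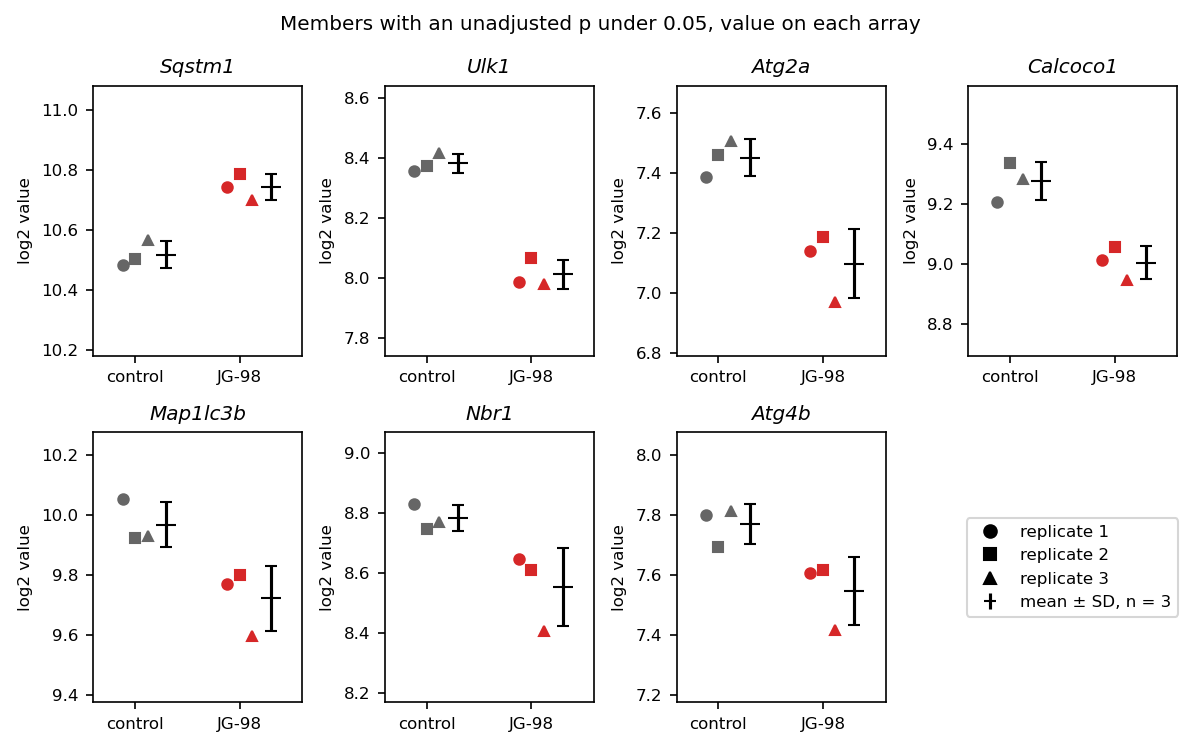
Log2 value on each array (symbols by replicate number) of the 7 members with an unadjusted p under 0.05, with the mean ± SD of each group (n = 3), on axes of equal height. Sqstm1 is higher on all 3 JG-98 arrays and the other 6 genes are lower, with JG-98 replicate 3 the lowest value for each of those 6.

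The transcription factors above the pathway were close to control at the transcript level. Tfeb was at 5.72, 5.98 and 5.94 in controls and 5.77, 5.95 and 5.89 with JG-98. The ranges overlapped almost wholly, with a difference of -0.01 (-0.24 to 0.21). Tfe3 was at -0.06 (-0.23 to 0.10) and overlapped, and was at -0.020 without JG-98 replicate 3. Mitf was at 7.981, 8.026 and 7.996 in controls and 7.93, 7.96 and 7.89 with JG-98, with no overlap and a difference of -0.08 (-0.22 to 0.07). These factors act mainly through their location in the cell, which transcript levels do not measure.

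Related members were then set against each other on the same array, as a log2 ratio, for 12 pairs picked with the values known. In 5 pairs the ratios of the groups did not overlap. The log2 ratio of Sqstm1 to Nbr1 was 1.65, 1.75 and 1.80 in controls and 2.09, 2.18 and 2.29 with JG-98, higher by 0.45 or 1.37-fold. Its separation was fixed in advance, because Sqstm1 was higher and Nbr1 lower with no overlap. It restates those results. The log2 ratio of Atg2b to Atg2a was -1.30, -1.50 and -1.63 in controls and -1.04, -0.98 and -0.92 with JG-98, higher by 0.50 or 1.41-fold. That of Ulk1 to Ulk2 was lower by 0.29, with all 3 treated arrays below all controls. The ratios of Map1lc3b to Gabarap and of Atg4b to Atg4c were at -0.22 and -0.27. Each of these 5 pairs had p = 0.1 by an exact permutation test (two-sided), the smallest that 3 against 3 arrays allow. After Benjamini-Hochberg adjustment over the 12 pairs it was 0.24. Ratios without overlap always give that smallest p, so the test adds nothing to the lack of overlap. As the pairs were picked with the values known, these p-values do not measure chance. The ratios of Tfeb to Tfe3, Mitf to Tfe3, Wipi1 to Wipi2, Atg16l1 to Atg16l2, Atg9a to Atg9b, Map1lc3b to Map1lc3a and Gabarapl1 to Gabarap overlapped.

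JG-98 replicate 3 had the lowest values of many members. Relative to the mean of the controls, the members had a median of -0.0038 on JG-98 replicate 1, -0.036 on replicate 2 and -0.13 on replicate 3. Over probe sets above the 75th percentile of level, these medians were 0.0076, 0.014 and -0.042. JG-98 replicate 3 held the lowest of the 6 values for 22 members, 57.9% of them, against 21.2% of all probe sets and 37.6% of those above the 75th percentile. The median difference of the members was -0.076 with all arrays, where that of all probe sets was 0.0008, and it was -0.023 without JG-98 replicate 3, which left 22 members below control and 16 above. Without that array, 12 members (31.6%) were lower with no overlap, against 16.7% of all probe sets, and 6 (15.8%) were higher, against 13.7%. Groups that do not overlap with all arrays stay apart when an array is left out. The 12 could therefore not have become fewer. Ulk1, Calcoco1 and Sqstm1 were at -0.35, -0.24 and 0.25 without JG-98 replicate 3. The direction of 22 of the 38 members was the same under the 9 settings tried that alter a difference (each array left out, array weights, median centring and quantile normalization). Among the 22 were the 7 with an unadjusted p under 0.05. As the groups of those 7 did not overlap, leaving out or weighting arrays could not change their direction. Only median centring and quantile normalization could have done so.

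**Figure D4:**
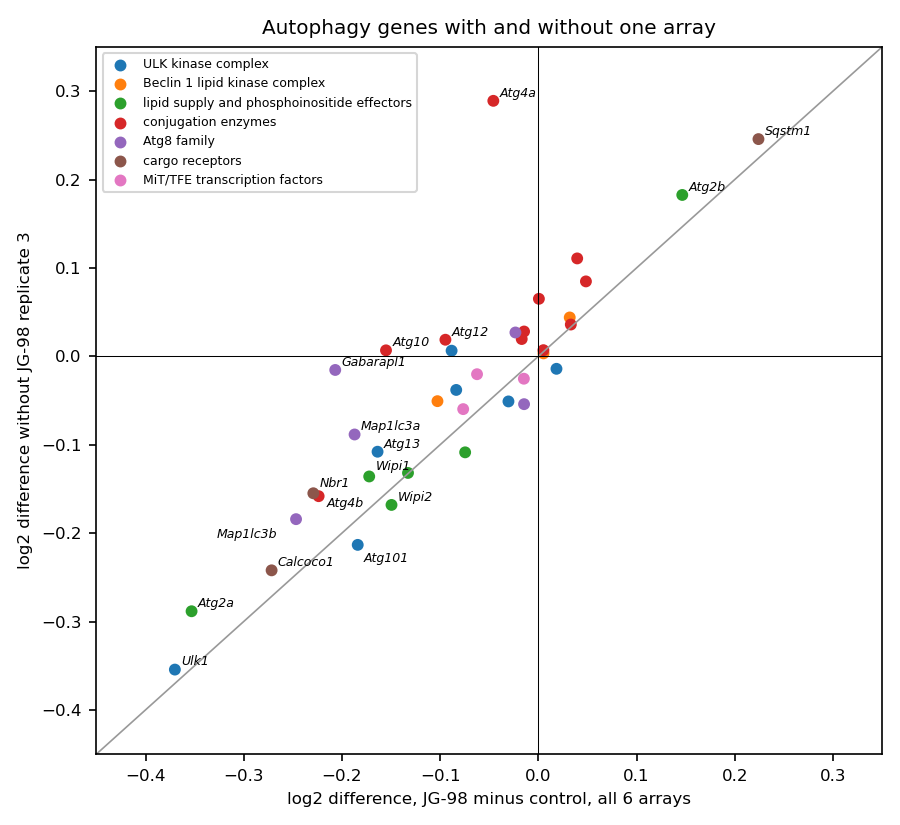
Log2 difference of each of the 38 genes with all 6 arrays (horizontal) against that without JG-98 replicate 3 (vertical), coloured by role, with the line of equality. Ulk1, Atg2a, Calcoco1 and Sqstm1 lie near the line, while Atg4a, Gabarapl1, Atg10 and Atg12 lie above it, at 0.29, -0.015, 0.0068 and 0.019 on the vertical axis.

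The other genes of the pathway were counted from named lists. Among 15 further early autophagy genes, 0 passed the test, and 1 was higher and 3 lower at an unadjusted p under 0.05 (median difference -0.055). Vmp1, a scramblase of the endoplasmic reticulum needed to form autophagosomes, was at 8.61, 8.64 and 8.57 in controls and 8.84, 8.83 and 8.90 with JG-98, a difference of 0.25 ± 0.063. Wdr45, a relative of the WIPI proteins, was at -0.34 ± 0.070, and Pik3c3, the catalytic subunit of the Beclin 1 complex, at -0.21 ± 0.068. Zfyve1, a phosphoinositide-binding protein of early autophagic membranes, was at -0.26 ± 0.087. All 4, picked for the smallest p of the list, had groups that did not overlap. Of all probe sets, 7.12% were higher and 8.44% lower with no overlap. Above the 75th percentile of level the shares were 13.7% and 17.9%.

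Of 14 other cargo and organelle receptors, 0 passed, and 4 were lower at an unadjusted p under 0.05 (median -0.063). Those 4 were 28.6% of the list, against 4.48% of all probe sets. Pink1, the kinase that marks damaged mitochondria, was at -0.36 ± 0.081. Ccpg1, a receptor for endoplasmic reticulum, was at -0.32 ± 0.11, and Ncoa4, the ferritin receptor, at -0.35 ± 0.13. Ccpg1 was at -0.20 without JG-98 replicate 3 and Ncoa4 at -0.23 without JG-98 replicate 1. The autophagosome tether Tecpr1 was at -0.17 ± 0.069 and stands also in the fusion list, as does Epg5 of the early list. In that list, of 15 genes that join autophagosomes to lysosomes, 0 passed and 3 were lower at an unadjusted p under 0.05 (median -0.080). Beside Tecpr1 these were Plekhm1, an adaptor for the tethering complex, at -0.24 ± 0.068, and Rubcnl at -0.19 ± 0.078. The tethering subunit Vps33a was at -0.16 ± 0.068.

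Upstream, the 41 genes of mTORC1, AMPK and nutrient sensing had a median of -0.021, and 0 passed. At an unadjusted p under 0.05, 2 were higher (4.88%) and 5 lower (12.2%), against 3.84% and 4.48% of all probe sets. Of the sestrins, which restrain mTORC1 when amino acids are short, Sesn2 and Sesn1 stood on opposite sides of control, and Sesn3 was at -0.098. Sesn2 was at 7.55, 7.57 and 7.60 in controls and 7.90, 7.79 and 7.90 with JG-98, and Sesn1 was at 9.12, 9.07 and 9.05 in controls and 8.76, 8.77 and 8.71 with JG-98. Neither overlapped, at 0.28 ± 0.066 and -0.33 ± 0.062. The arginine sensor relative Castor2 was at -0.27 ± 0.071, and the AMPK subunit Prkaa2, near the median level of all probe sets, at 0.35 ± 0.11.

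Downstream, 26 genes listed as TFEB targets, most of them lysosomal, had a median of 0.0048, and 0 passed. At an unadjusted p under 0.05, 2 were higher (7.69%) and 3 lower (11.5%), against 3.84% and 4.48% of all probe sets. Sgsh, a heparan sulfate hydrolase, was at -0.35 ± 0.061 and the protease gene Ctsf at -0.45 ± 0.13. The sialidase Neu1 was at 0.22 ± 0.066 and the membrane protein Scarb2 at -0.19 ± 0.066. Among 9 repressors and chromatin or transcription factors of autophagy (median -0.091), 0 passed. Foxk2, which represses autophagy genes in fed cells, was at 7.71, 7.66 and 7.66 in controls and 7.94, 7.89 and 7.92 with JG-98. It did not overlap, at 0.24 ± 0.061, while the repressors Foxk1 and Zkscan3 were on the other side of control, at -0.11 and -0.13. Foxo3, an activator of autophagy genes, was at -0.21 ± 0.081. The stress factor Xbp1 and Foxo1 were at 0.16 ± 0.077 and -0.13 ± 0.069.

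The chaperone routes to the lysosome showed 0 of 10 genes at an unadjusted p under 0.05 (median -0.0094). Bag3, which hands Hsp70 clients to p62 and LC3, was at 8.05, 8.14 and 8.13 in controls and 7.95, 8.12 and 8.07 with JG-98, a difference of -0.06 ± 0.074 with groups that overlapped, or -0.013 without JG-98 replicate 1. Dnajb1, Dnajb6 and Synpo2 were at -0.10 ± 0.076, 0.20 ± 0.21 and -0.09 ± 0.10, the last 2 from probe sets below the median level. Of the list outside autophagy, 4 of 14 stress genes of the ATF4 and CHOP axis rose over all probe sets, and 11 were higher at an unadjusted p under 0.05 (median 0.73). The 4 were 28.6% of the list, against 0.0317% of all probe sets, and the 11 were 78.6%, against 3.84%. Trib3, a pseudokinase that inhibits Akt, rose by 1.58 ± 0.079 (limma adjusted p = 0.0094), and Mthfd2, Nupr1 and Asns rose by 0.89, 0.77 and 0.92. Of these 4, Trib3 alone also passed without JG-98 replicate 3 (limma adjusted p = 0.015), and none passed when any other array was left out. After median centring of each array Nupr1 and Asns did not pass (limma adjusted p = 0.082 and 0.064), at differences of 0.75 and 0.90. Sesn2 stands in both this list and the nutrient list.

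**Figure D5:**
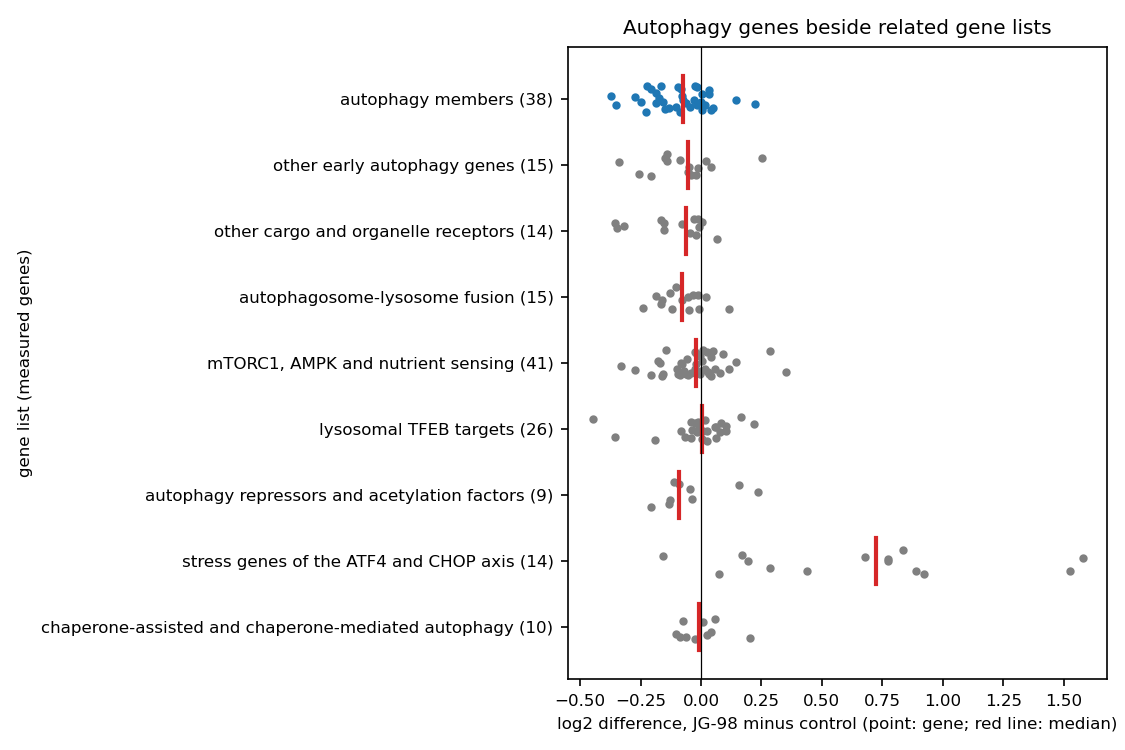
Log2 difference between JG-98 and control of each gene (point) in the autophagy set (blue) and in 8 related lists (grey), with the median of each list (red line) and the number of measured genes in brackets. The autophagy genes lie between -0.37 and 0.22 about a median of -0.076, and the ATF4 and CHOP list about a median of 0.73.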

How the data were processed

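RNA of 6 mouse macrophage samples was hybridised to 6 single-colour Affymetrix-type arrays. The authors deposited log2 values, 1 per probe set and array. The submitters' processing notes list RMA, affy and R 2.15.1 and give no roles. On arrays, background compresses the differences of dim probe sets. The genome build was not given in the sources used here.

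Of 25206 probe sets, 23185 carry 1 symbol in the platform annotation, 0 several and 2021 none. Symbols were updated by Entrez number through RefSeq (GRCm38.p6, 23185 matched). All probe sets were fitted with limma 3.58.1 in R 4.3.3 (lmFit, eBayes, two-sided), with no covariate and Benjamini-Hochberg adjustment over all of them. The prior had 2.59 degrees of freedom beside 4 residual. The fit was also run on simulated data, with variances drawn from its own fitted prior. Those data held no outlying array, so they do not show how well the fit suits these arrays. SE and intervals (95%) are moderated.

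Named are members with an adjusted p under 0.05 (there were none), up to 10 per direction with the smallest unadjusted p under 0.05, a fixed set of core members, and up to 4 genes with the smallest p in each list. The members and lists were chosen with earlier results of these data known. No label says that replicates were separate cultures or animals, so p-values reflect only how far these samples vary, possibly for technical reasons.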

Additional observations from a re-analysis of the deposited data

How the results depend on the processing

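The number of arrays limits the precision, and dim probe sets cannot be told from background. With all arrays limma called 8 probe sets higher and 2 lower, of which 0 were members. With an intensity trend it called 127 and 127, with 1 member higher (Sqstm1) and 2 lower (Ulk1 and Calcoco1). Among probe sets above the 75th percentile of level it called 234 and 299, with 1 member higher (Sqstm1) and 3 lower (Ulk1, Atg2a and Calcoco1). Among those above the median level it called 49 and 41, with 0 members higher and 1 lower (Ulk1). Array weights gave 17 and 8, and median centring gave 5 higher. Leaving out 1 array gave 0 to 4 probe sets higher and 0 to 1 lower, with 0 members called each time. The 4 and the 1 were found with JG-98 replicate 3 left out, and each other omission gave 0. The adjusted p ranged from 0.0041 to 0.75 for Ulk1 and from 0.021 to 0.84 for Sqstm1.

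The replicate numbers are not said to pair the arrays. Deviations of same-numbered arrays correlated at 0.095, -0.13 and 0.10, and those of differently numbered arrays at -0.23 to 0.20. With a replicate block limma called 0 probe sets higher and 0 lower, and the median member stayed at -0.076.

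That median ranged from -0.098 to -0.023 when 1 array was left out and was below 0 under each setting tried. Differences near 0 changed sign, and the cause was not tested. With array weights and after a further quantile normalization Atg5 was at 0.020 and 0.0030, after the latter Tfeb was at 0.0062, and after median centring Becn1 was at -0.014. With 1 array left out, Atg5 ranged from -0.044 to 0.028, Becn1 from -0.028 to 0.043, Gabarap from -0.066 to 0.027, Tfeb from -0.094 to 0.036 and Dnajb6 from -0.028 to 0.36. Members lower at an unadjusted p under 0.05 numbered 3 to 7 with 1 array left out, 3 after median centring and 9 with an intensity trend. Those higher numbered 0 after median centring and 2 after quantile normalization or without JG-98 replicate 3. A robust prior gave the same counts as the fit without it.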
